A study of Mus musculus with 8 samples.

Results

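The fibrillar collagen chains described here are the 7 genes Col1a1, Col1a2, Col3a1, Col5a1, Col5a2, Col5a3 and Col11a1, chosen by name from the 34399 gene symbols measured in the series. Their RNA was counted in GFP-positive fibroblasts sorted from the ventricles of mice 4 weeks after transverse aortic constriction (TAC), an operation that narrows the aorta and puts the heart under pressure overload. All mice were 8 to 10 weeks old at surgery, carried a tamoxifen-dependent MerCreMer recombinase knocked into either the Postn or the Tcf21 locus together with a Cre-dependent eGFP reporter in the Rosa26 locus, and received tamoxifen by injection (100 mg/kg on 2 days) and then in chow (40 mg/kg). The 8 libraries form 4 groups of 2. HK3 and HK4 are Postn-Cre controls, with the driver and reporter alone as far as the labels say, and were set against HK15 and HK16, from double knockout (DKO) mice that add loxP-flanked Smad2 and Smad3 to the Postn driver. HK6 and HK7 are Tcf21-Cre controls and were set against HK2 and HK4, from DKO mice that add loxP-flanked Tgfbr1 and Tgfbr2 to the Tcf21 driver. HK4 is thus the number of a library in both the Postn-Cre control and the Tgfbr1/2 DKO group, and the numbers pair nothing. Postn is a gene of activated fibroblasts and Tcf21 of resident ones, so each driver marks only the cells in which its locus was active. The Smad2/3 and the Tgfbr1/2 comparison were sequenced in different runs, so that they differ in run, driver and targeted genes at once. Whether a library is a separate animal or a pool is not stated, so the p-values speak of the spread among these libraries alone.

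Fibrillar collagens are secreted as procollagens, in which 3 chains wind into a triple helix before their ends are trimmed and the molecules assemble into fibrils. Type I collagen combines Col1a1 with Col1a2, type III is made of Col3a1 alone, and type V combines Col5a1 with Col5a2 and, in some tissues, Col5a3. Col11a1 is a chain of type XI collagen, which like type V lies inside fibrils and limits their diameter. Cardiac fibroblasts make most of the type I and III collagen of the scar and of interstitial fibrosis, and TGF-beta, acting through its receptors Tgfbr1 and Tgfbr2 and the signal transducers Smad2 and Smad3, is a classical inducer of these genes.

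In mouse assembly GRCm38, with GENCODE vM21 annotation, Col1a1 lies on chromosome 11 (94936224 to 94953042), Col1a2 on chromosome 6 (4504814 to 4541544), Col5a1 on chromosome 2 (27886425 to 28039514), Col5a3 on chromosome 9 (20770050 to 20815067) and Col11a1 on chromosome 3 (114030540 to 114220718). Col3a1 (45311538 to 45349706) and Col5a2 (45374321 to 45503282) are neighbours on chromosome 1, on opposite strands and 24614 bases apart, with 0 annotated genes between them. The libraries carry no strand information. Reads from genes annotated inside 5 of the chains (Gm43921 in Col1a2, Gm47302 in Col3a1, 2810430I11Rik and Gm13372 in Col5a1, Gm38211 in Col5a2, Gm26274 in Col5a3) can therefore not be told apart from the chain by strand. No overlapping gene is annotated for Col1a1 and Col11a1.

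Promoter sequence was found for 5 of the 7 chains in a RefSeq table (GRCm38.p6), and not for Col1a1 and Col5a2. The 250 bases before the RefSeq start are printed for 4 of them, 5′ to 3′ on the gene's strand, because Col3a1 fell the most in one comparison, Col5a3 was the chain that rose in the other, and Col1a2 and Col5a1 belong to the same fibrils. Capitals mark 4 short motifs searched on both strands: CAGAC, the core of SMAD-binding elements (GTCTG where it lies on the opposite strand), the CCAAT box, the GC box and the TATA box. The GC box was searched as GGGCGG, which reads CCGCCC where it lies on the opposite strand, and the TATA box as TATAAA.
Col3a1 (chr1:45311288-45311537, plus strand): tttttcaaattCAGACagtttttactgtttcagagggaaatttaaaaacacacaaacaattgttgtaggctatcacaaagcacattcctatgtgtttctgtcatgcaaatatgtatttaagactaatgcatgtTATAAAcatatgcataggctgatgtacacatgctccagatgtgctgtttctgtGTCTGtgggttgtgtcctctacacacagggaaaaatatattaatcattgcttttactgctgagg
Col1a2 (chr6:4505368-4505617, plus strand): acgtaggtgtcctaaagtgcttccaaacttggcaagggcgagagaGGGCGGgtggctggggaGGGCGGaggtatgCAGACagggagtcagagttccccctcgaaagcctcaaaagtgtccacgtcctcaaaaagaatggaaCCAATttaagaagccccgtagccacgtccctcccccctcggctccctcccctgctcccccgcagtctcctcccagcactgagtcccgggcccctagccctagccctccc
Col5a1 (chr2:27886175-27886424, plus strand): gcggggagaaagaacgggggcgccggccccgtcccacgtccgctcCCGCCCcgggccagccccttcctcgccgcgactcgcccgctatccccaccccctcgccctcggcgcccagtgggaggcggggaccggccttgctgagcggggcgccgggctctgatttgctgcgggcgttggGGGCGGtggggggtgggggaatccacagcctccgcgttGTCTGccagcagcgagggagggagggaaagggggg
Col5a3 (chr9:20815068-20815317, minus strand): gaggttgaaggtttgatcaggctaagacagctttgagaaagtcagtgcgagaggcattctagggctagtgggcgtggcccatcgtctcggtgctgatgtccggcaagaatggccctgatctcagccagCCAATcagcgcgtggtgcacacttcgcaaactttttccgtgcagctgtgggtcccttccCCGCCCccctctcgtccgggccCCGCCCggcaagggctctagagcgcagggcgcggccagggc

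The 4 promoters differ in composition. GC content is 35.2% for Col3a1, 62% for Col1a2, 76.4% for Col5a1 and 62.8% for Col5a3, against a median of 52.4% over the 32851 promoters of the table. CAGAC occurs 2 times before Col3a1, 1 time each before Col1a2 and Col5a1, and 0 times before Col5a3. At least 1 CAGAC is found in 42.2% of all promoters over the same 250 bases. Among these 4, CCAAT (33.8% of promoters) is found before Col1a2 and Col5a3, and TATAAA (12.4%) before Col3a1. That TATAAA lies 117 to 112 bases before the RefSeq start, and whether it acts as a TATA box was not tested. GGGCGG (32.7%) is found before Col1a2, Col5a1 and Col5a3, 2 times each. The Col11a1 window, which is not printed, has 62.4% GC, with CAGAC 1 time, CCAAT 1 time, GGGCGG 2 times and TATAAA 0 times. The RefSeq start of Col1a2 lies inside the annotated GENCODE gene, which begins further upstream, so the Col1a2 window lies within that gene, while the other printed windows end directly at the gene start. No matches of different motifs overlap in these windows. A match here describes the letters and is no evidence of binding.

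Levels are in CPM, the count of a gene for each 1000000 counts of its library. Library totals were 21477742 to 32594649, which puts 3 counts at 0.092 to 0.14 CPM, far below the lowest chain value of 12.3 CPM. Fibroblast markers (10 genes, among them Pdgfra, Dcn and Lum) summed to between 16636 and 29670 CPM, with 0 of the 10 markers at 0 counts in any library, and edgeR called 0 of 10 in either knockout comparison. At an unadjusted p under 0.05 there were 5 in the Smad2/3 and 0 in the Tgfbr1/2 comparison, and DESeq2 called 2 and 0. Over all tested genes, 2137 of 15760 and 3332 of 16658 were at an unadjusted p under 0.05, in the same order. The counts at an unadjusted p given below for other lists stand beside these. In total counts, the targeted genes were not detectably lower. Smad2 was at 95.4 and 82.3 CPM in Postn-Cre control and at 84.5 and 78.2 CPM in Smad2/3 DKO libraries (log2 fold change -0.19, adjusted p = 0.747), and Smad3 went from 114 and 92.7 to 70.5 and 109 CPM (-0.26, adjusted p = 0.702). Tgfbr1 was at 229 and 238 CPM in Tcf21-Cre control and at 181 and 193 CPM in Tgfbr1/2 DKO libraries (-0.24, adjusted p = 0.533), and Tgfbr2 went from 370 and 406 to 471 and 406 CPM (0.25, adjusted p = 0.535). A whole-gene count does not show whether a floxed exon is gone, and DKO is used here as a label. All adjusted p-values come from edgeR quasi-likelihood tests across every tested gene with Benjamini-Hochberg adjustment and a threshold of 0.05, and every standard error (SE) is on the log2 scale.

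The 7 chains together made up 1.08% and 0.969% of all counts in the Postn-Cre controls, compared with 0.341% and 0.321% in the Smad2/3 DKO libraries. The shares were 1.32% and 2.04% for the Tcf21-Cre controls, compared with 1.27% and 1.46% for Tgfbr1/2 DKO. In these shares of library totals, which were not scaled between the runs, the Smad2/3 DKO libraries were the lowest of all 8. HK7, a Tcf21-Cre control, was the highest. In a bulk sample of sorted cells, fewer cells making a chain and less RNA per cell cannot be told apart.

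**Figure D1:**
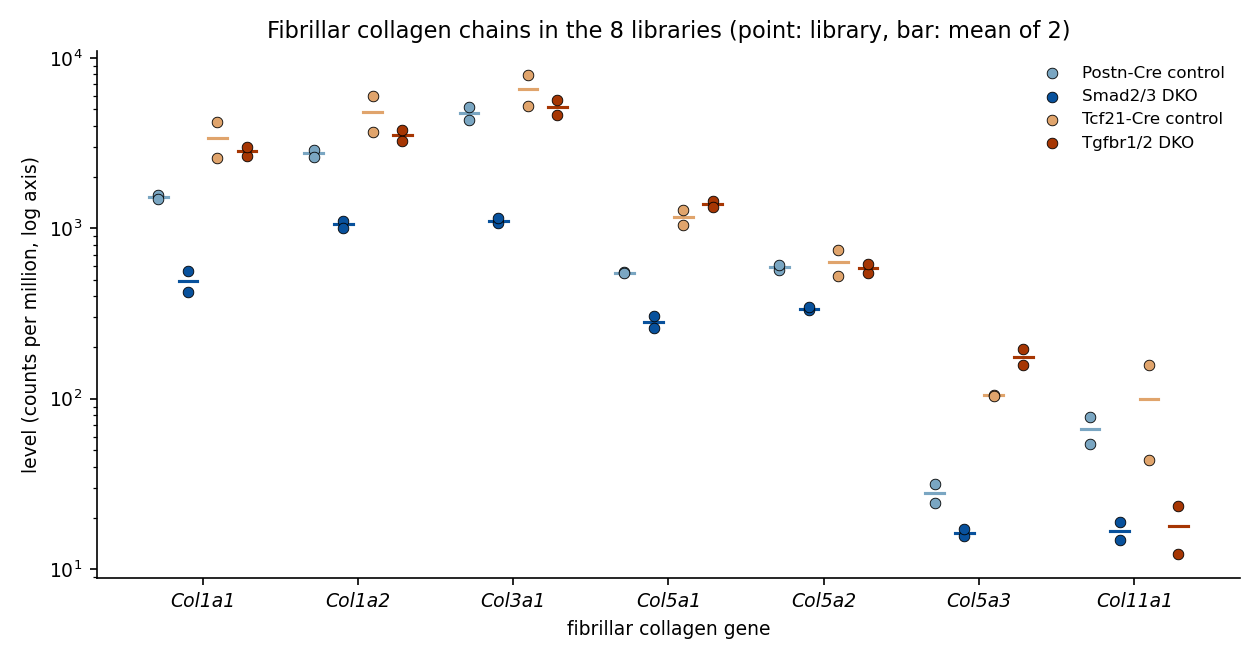
Level of each fibrillar collagen chain in CPM (log axis), 1 point per library and a bar at the mean of 2 libraries per group. The Smad2/3 DKO points lie below the Postn-Cre control points for all 7 chains, whereas the Tgfbr1/2 DKO points overlap with the Tcf21-Cre control points except for Col5a1 and Col5a3 (above) and Col11a1 (below).

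To compare chains with each other, levels were divided by gene length (CPM per kb of merged exons). Col3a1 was the highest chain in all 8 libraries on this scale, at 523 and 439 CPM per kb in Postn-Cre control, 109 and 117 in Smad2/3 DKO, 528 and 811 in Tcf21-Cre control and 471 and 577 in Tgfbr1/2 DKO libraries. Col1a1 and Col1a2 followed, with means of 233 and 221 CPM per kb in Postn-Cre control and 75.2 and 84.8 in Smad2/3 DKO libraries. Their library values overlapped in both of these groups (240 and 225 against 231 and 212 CPM per kb, and 86 and 64.4 against 89.1 and 80.6). Within each library, Col1a1 was above Col1a2 in the Postn-Cre controls and below it in the Smad2/3 DKO libraries. This order was not tested. Col5a1 and Col5a2 were next, at 65 and 64.1 against 59.4 and 63.8 CPM per kb in the Postn-Cre controls, which barely failed to overlap, and at 35.8 and 30.7 against 34.4 and 36.1 in the Smad2/3 DKO libraries, which overlapped. In the Tcf21-driver groups Col5a1 was above Col5a2 in every library (123 to 170 against 54.6 to 77.8 CPM per kb), as Col1a1 was above Col1a2 within each library. Col5a3 and Col11a1 were lowest, at 0.963 to 28.6 CPM per kb over the 8 libraries.

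The order of the chains rests partly on the length used. Merged exons of Col1a2 span 12426 bases and its longest transcript 5348, and with the longest transcript Col1a2 exceeded Col1a1 in every library and was the highest chain in Smad2/3 DKO HK15 (207 against 192 CPM per kb for Col3a1). The changes of a chain between libraries do not depend on this choice.

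The first comparison asked how the chains differ between Smad2/3 DKO and Postn-Cre control libraries. Of the 7 chains, 6 fell and none rose. All 7 were lower in both DKO libraries than in both controls. Over the 15760 genes tested, 0.844% were called lower and 0.451% higher, 18.9% had groups without overlap in the lower direction and 25.4% in the higher direction, and the median log2 fold change was 0.01, against -1.44 over the chains. Col3a1 had the largest fitted fall and the type V chains the smallest.

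Col1a1, the main chain of type I collagen, had 1574 and 1480 CPM in the controls against 564 and 422 CPM in the knockouts. It fell by 1.69 ± 0.17 on the log2 scale (SE, n = 2 libraries per group; edgeR adjusted p = 0.0011), a 3.23-fold lower level. Its partner Col1a2, at 2864 and 2635 CPM in the controls against 1108 and 1001 CPM, fell by 1.44 ± 0.14 (edgeR adjusted p = 0.0011). Both chains of type I collagen thus fell in both DKO libraries, with the control values within 1.09-fold of each other for either chain.

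Col3a1, the single chain of type III collagen, had 5130 and 4307 CPM in the controls against 1067 and 1147 CPM in the knockouts. It fell by 2.15 ± 0.15 (edgeR adjusted p = 8.05e-05), a 4.44-fold lower level, and its p-value ranked 4 among the 15760 genes. The 2 DKO values were within 1.07-fold of each other. Of the counts per length in the 7 chains, Col3a1 held 46.4% and 43.2% in the control libraries and 30.4% and 35.2% in the DKO libraries.

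Among the type V chains, Col5a1, at 552 and 544 CPM in the controls against 304 and 261 CPM, fell by 1.01 ± 0.15 (edgeR adjusted p = 0.00716). Col5a2, which completes the common type V trimer, had 569 and 612 CPM against 330 and 346 CPM and fell by 0.86 ± 0.14 (edgeR adjusted p = 0.0149). The call of Col5a2 was lost without Smad2/3 DKO HK15 (adjusted p = 0.131). Col5a3, a rarer type V chain, was at 24.3 and 31.5 CPM in the control and 15.6 and 17.1 CPM in the DKO libraries. Its groups did not overlap, but its log2 fold change of -0.82 ± 0.29 was not past the threshold (edgeR adjusted p = 0.223).

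Col11a1, the type XI chain, had 54.4 and 78.3 CPM in the controls against 18.8 and 14.8 CPM in the knockouts. It fell by 2.04 ± 0.27 (edgeR adjusted p = 0.00445). When all 8 libraries shared a fit, Col11a1 and Col5a2 had the same size of fall but no longer passed (adjusted p = 0.0959 and 0.0855), while Col1a1, Col1a2, Col3a1 and Col5a1 did.

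Endothelial markers had a summed level of 544 and 270 CPM in control and 264 and 163 CPM in DKO libraries, with control HK3 standing apart. The median of the 12 endothelial markers was -1.24, and none was at 0 counts. Of the 12, edgeR called 0 (6 at an unadjusted p under 0.05) and DESeq2 1. Cardiomyocyte markers (12 genes, median -1.16, edgeR 0, unadjusted 5, DESeq2 1) summed to 674 and 723 against 766 and 713 CPM. Epicardial markers (6 genes, of which 3 were tested, edgeR 0, unadjusted 2, DESeq2 1) summed to 70.2 and 60.9 against 39.4 and 36.5 CPM, with Upk1b at 0 counts in all 4 libraries. Among 10 pericyte and smooth muscle markers 1 fell and the sums were 1569 and 868 against 1054 and 766 CPM. Xist, expressed from the inactive X chromosome of female cells, was at 3.65 and 2.18 CPM in control and at 277 and 75.3 CPM in DKO libraries (log2 fold change 5.84, edgeR adjusted p = 0.00463, lost without either control library), while the Y-linked Ddx3y was at 132 to 222 CPM in all 4. The part of these differences in the fall of the chains was not tested.

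The second comparison asked the same of Tgfbr1/2 DKO and Tcf21-Cre control libraries. Of the 7 chains, 1 rose, none fell and 6 did not pass. Over the 16658 genes tested, 1.31% were called lower and 2.64% higher, 29.4% had groups without overlap in the lower direction and 21.8% in the higher direction, and the median log2 fold change was -0.01, against -0.19 over the chains. The groups overlapped for 4 chains, Col5a1 and Col5a3 were higher in both DKO libraries, and Col11a1 was lower in both.

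Col5a3 was the chain that rose. It had 105 and 104 CPM in the controls against 195 and 157 CPM in the knockouts, a change of 0.83 ± 0.18 on the log2 scale (n = 2 libraries per group; edgeR adjusted p = 0.0332), or 1.77-fold. The control values lay within 1.01-fold of each other. The call was lost without any 1 of the 4 libraries (adjusted p = 0.0876 to 0.165) and without robust estimation (0.0507). Its type V partner Col5a1 was at 1046 and 1282 CPM in the control and 1441 and 1333 CPM in the DKO libraries, with a log2 fold change of 0.33 ± 0.23 (edgeR adjusted p = 0.464). Col5a2 was at 524 and 746 against 548 and 616 CPM (-0.05 ± 0.25, edgeR adjusted p = 0.94).

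For the type I and III chains, the 2 DKO values lay inside or partly inside the range of the 2 control values. Col1a1 was at 2569 and 4204 CPM in the control and 2644 and 3005 CPM in the DKO libraries (-0.19 ± 0.29, edgeR adjusted p = 0.777). Col1a2 was at 3696 and 5988 CPM against 3239 and 3786 CPM (-0.39 ± 0.30, edgeR adjusted p = 0.517). Col3a1 was at 5187 and 7961 CPM against 4627 and 5666 CPM (-0.28 ± 0.30, edgeR adjusted p = 0.658). Control HK7 was the high library for all of these, and without it the log2 fold changes became 0.29, 0.08 and 0.14, none past the threshold.

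Col11a1 had the largest fitted change and the widest spread. The controls held 43.6 and 157 CPM and the knockouts 12.3 and 23.5 CPM, with a log2 fold change of -2.41 ± 0.93 (edgeR adjusted p = 0.316). The control values differed 3.6-fold between themselves, and the fitted change ran from -3.08 to -1.12 when each library was left out. A fall of Col11a1 was therefore not detectable with this spread.

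Some marker lists of other cells were higher in the Tgfbr1/2 DKO libraries. Macrophage markers summed to 58.3 and 83.4 CPM in control and 201 and 216 CPM in DKO libraries, and 4 of 10 rose. Epicardial markers summed to 83.9 and 46.4 against 427 and 444 CPM. Of the 6, 5 were tested, with a median log2 fold change of 2.09. There were 3 at an unadjusted p under 0.05, DESeq2 called 1, and edgeR called 1. That gene, Aldh1a2, carried the sum (49.3 and 16.5 against 387 and 420 CPM, edgeR adjusted p = 0.0296, up to 0.286 without a library), while Tbx18 was at 32.2 and 27.8 against 33.5 and 22.2 CPM. None of the macrophage markers was at 0 counts in these 4 libraries. Endothelial markers summed to 468 and 424 against 565 and 542 CPM, with 1 of 12 higher. Cardiomyocyte (575 and 591 against 682 and 590 CPM), pericyte and smooth muscle (1057 and 787 against 952 and 1024 CPM) and lymphocyte sums overlapped. Of the 10 pericyte and smooth muscle markers 1 rose (median 0.34, 3 at an unadjusted p under 0.05, DESeq2 1). Erythroid markers (5 genes, of which 4 were tested, median 1.41, edgeR 0, unadjusted 2, DESeq2 3) summed to 21.8 and 36.3 against 112 and 39.3 CPM. Schwann markers summed to 44.6 and 22.4 against 22.2 and 17.5 CPM. The part of these markers in the values of the chains was not tested.

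**Figure D2:**
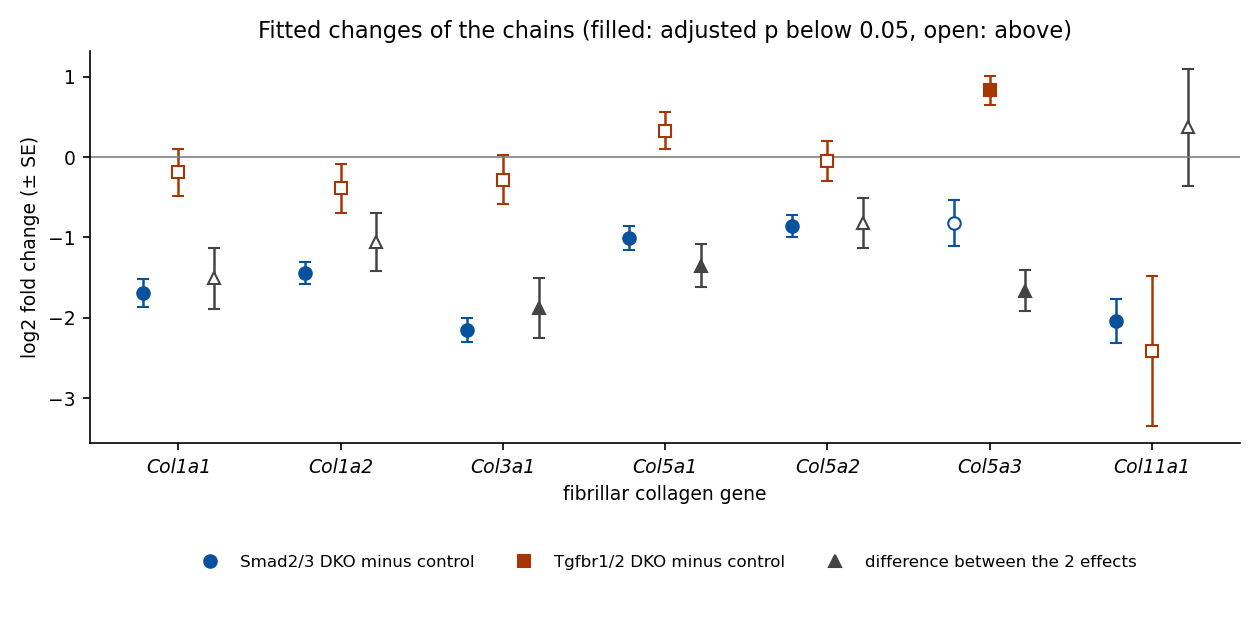
Fitted log2 fold change of each chain with its SE, for Smad2/3 DKO minus Postn-Cre control (circles), Tgfbr1/2 DKO minus Tcf21-Cre control (squares) and the difference between these effects (triangles). Filled symbols have an adjusted p below 0.05: 6 circles, 1 square and 3 triangles.

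The difference between the knockout effects was tested directly as an interaction over all 8 libraries (Smad2/3 effect minus Tgfbr1/2 effect). The comparisons share no control library. It was past the threshold for 3 of 7 chains, each with a more negative effect in the Smad2/3 comparison. Over the 17770 genes tested, 1.17% were called lower and 0.664% higher, and 3092 were at an unadjusted p under 0.05. Col3a1 differed by -1.88 ± 0.37 on the log2 scale (edgeR adjusted p = 0.0314), Col5a1 by -1.35 ± 0.27 (0.0325) and Col5a3 by -1.66 ± 0.26 (0.0142). The call of Col5a3 was kept without each library (adjusted p up to 0.05, under the threshold before rounding), that of Col3a1 was lost without Postn-Cre control HK3, Smad2/3 DKO HK15 or HK16, or Tgfbr1/2 DKO HK4, and that of Col5a1 was lost without any 1 library other than Tcf21-Cre control HK7. Adjusted p-values without a library reached 0.0954 for Col3a1 and 0.126 for Col5a1.

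The other 4 chains did not pass. Col1a1 differed by -1.51 ± 0.38 (edgeR adjusted p = 0.0751), Col1a2 by -1.06 ± 0.36 (0.167) and Col5a2 by -0.82 ± 0.31 (0.197). Col11a1, for which both comparisons gave a negative fold change, differed by 0.37 ± 0.73 (0.847). For these 4 the effects are not shown to differ, nor to be alike.

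The chains also differed between the control groups, which differ in driver and run at once. Postn-Cre minus Tcf21-Cre control gave lower levels of Col5a3 (log2 fold change -1.57 ± 0.21, edgeR adjusted p = 0.00265) and Col5a1 (-0.76 ± 0.21, edgeR adjusted p = 0.027), and the other 5 chains did not pass. Of the 16568 genes tested, 17.3% were called lower and 16.6% higher, 47.8% had groups without overlap in the lower direction and 23.7% in the higher direction, so that 2 of 7 chains called lower stand beside a common call among all genes. In CPM, Col1a1 was lower in both Postn-Cre control libraries, without passing in the fit (-0.82 ± 0.28, edgeR adjusted p = 0.0576). CPM and group overlap rest on library totals alone, while the fits add TMM scaling, and between the runs these can disagree. Col3a1 had means of 4719 CPM in Postn-Cre control and 6574 CPM in Tcf21-Cre control libraries, with a fitted log2 fold change of -0.15 ± 0.28. Without Tcf21-Cre control HK6, Col1a1, Col1a2 and Col11a1 were also called lower, and without HK7 Col11a1 was called higher (log2 fold changes of Col11a1 -0.96 and 0.98). The call of Col5a1 was lost without Postn-Cre control HK3 or HK4 or Tcf21-Cre control HK7. Postn RNA itself was at 208 and 186 CPM in Postn-Cre control and 1615 and 3076 CPM in Tcf21-Cre control libraries (log2 fold change -3.25, edgeR adjusted p = 0.00169), and Tcf21 RNA at 26.2 and 25.6 against 163 and 111 CPM (-2.06, edgeR adjusted p = 0.00172). Driver, run and the knocked-in allele of each driver gene cannot be told apart in these values. Fibroblast markers summed to 19867 and 16636 CPM in Postn-Cre control and 28232 and 29670 CPM in Tcf21-Cre control libraries, with 4 of 10 called lower and 1 higher. Endothelial markers summed to 544 and 270 against 468 and 424 CPM (1 of 12 lower, 3 higher), and pericyte and smooth muscle markers to 1569 and 868 against 1057 and 787 CPM (2 of 10 lower, 1 higher). Their part in the difference of the chains was not tested.

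Ratios between chains of a fibril were computed in each library from the levels per kb of merged exons and are given as descriptions without a test. The log2 ratio of Col1a1 to Col1a2 was 0.06 and 0.09 in the Postn-Cre control, -0.05 and -0.32 in the Smad2/3 DKO, 0.40 and 0.41 in the Tcf21-Cre control and 0.63 and 0.59 in the Tgfbr1/2 DKO libraries. The ratio of Col3a1 to Col1a1 was 1.12 and 0.96 in the Postn-Cre control and 0.34 and 0.86 in the Smad2/3 DKO libraries, against 0.43 and 0.34 in the Tcf21-Cre control and 0.23 and 0.33 in the Tgfbr1/2 DKO libraries. Type III was thus lower relative to type I in both Smad2/3 DKO libraries than in their controls, by unequal amounts.

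Within the type V and XI chains, the log2 ratio of Col5a1 to Col5a2 was 0.13 and 0.01 in the Postn-Cre control and 0.06 and -0.23 in the Smad2/3 DKO libraries. It was 1.17 and 0.96 in the Tcf21-Cre control and 1.57 and 1.29 in the Tgfbr1/2 DKO libraries, so the libraries of the second run held more Col5a1 for each Col5a2. Col5a3 to Col5a1 was -4.19 and -3.79 in the Postn-Cre control, -3.96 and -3.61 in the Smad2/3 DKO, -3.00 and -3.31 in the Tcf21-Cre control and -2.57 and -2.77 in the Tgfbr1/2 DKO libraries. Col11a1 to Col5a1 was -3.93 and -3.38 in the Postn-Cre control and -4.60 and -4.73 in the Smad2/3 DKO libraries, and -5.17 and -3.62 in the Tcf21-Cre control and -7.46 and -6.41 in the Tgfbr1/2 DKO libraries. The 2 DKO groups were thus below their own controls in the share of Col11a1 relative to Col5a1 in all 4 libraries.

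**Figure D3:**
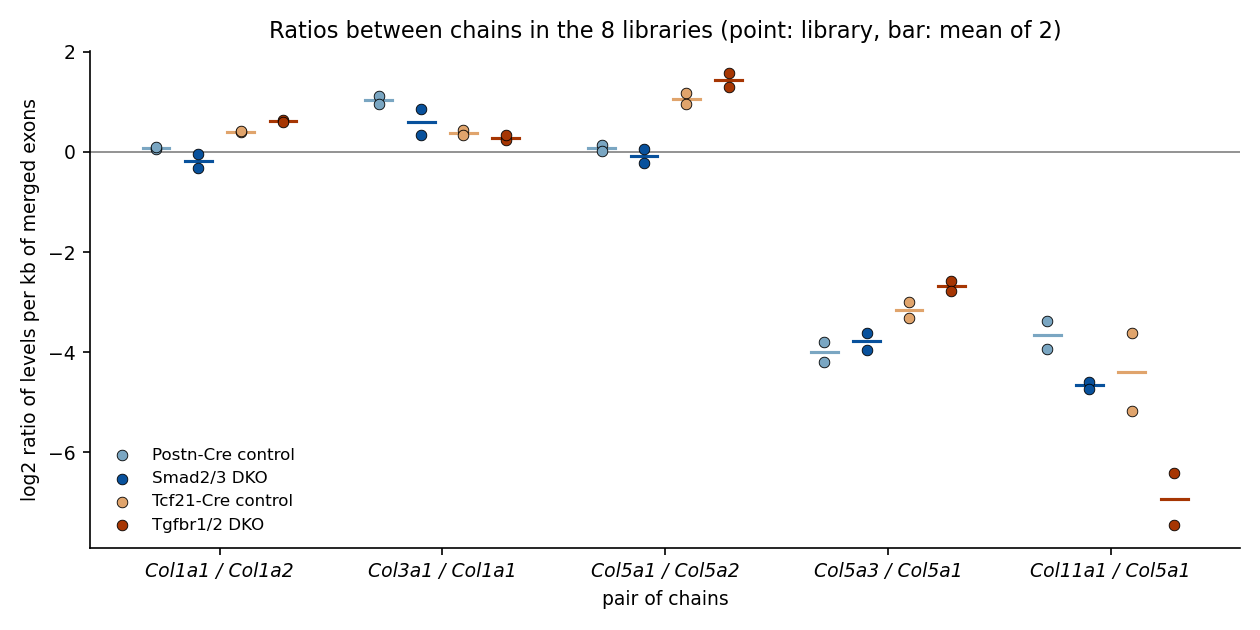
Log2 ratio of levels per kb of merged exons for 5 pairs of chains, 1 point per library and a bar at the mean of 2 libraries per group. Col5a1 to Col5a2 is near 0 in the Postn-driver groups and 0.96 to 1.57 in the Tcf21-driver groups, and Col11a1 to Col5a1 is lower in both DKO groups than in their controls.

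Across all 8 libraries, the chains followed each other to different degrees. As a description over 8 libraries of 4 groups and 2 runs, which share the group differences given above, Pearson's r of log2(CPM + 1) was 0.987 between Col1a1 and Col1a2, 0.979 between Col1a2 and Col3a1, 0.969 between Col5a1 and Col5a3 and 0.799 between Col5a1 and Col5a2. Col11a1 was the least like the others, with r from 0.0497 (Col5a3) to 0.692 (Col5a2). Of the 8239 other genes with a mean of at least 10 CPM, those most like Col1a1 were Ssc5d (0.992), 9530068E07Rik (0.989), Col6a1 (0.986), Dpysl3 (0.985) and Fstl1 (0.982). Those most like Col1a2 were Sdk2 (0.976), Ssc5d, Ppic, Dpysl3 and 1500015O10Rik, and those most like Col3a1 were Olfml3 (0.979), Lgals3bp, Sephs1, Sdk2 and Dpysl3. Col6a1 is a chain of the beaded type VI collagen.

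The other genes of the collagen pathway were read from 7 lists. The 4 remaining fibrillar chains (Col2a1, Col11a2, Col24a1, Col27a1) had 0 past the threshold of edgeR or DESeq2 in either knockout comparison, and 0 and 1 at an unadjusted p under 0.05. Of them, Col27a1 had the highest mean, at 45.4 and 51.6 CPM in Postn-Cre control against 60.5 and 54.1 CPM in Smad2/3 DKO libraries (edgeR adjusted p = 0.785), and 64.6 and 65 against 90.1 and 76.7 CPM in the second comparison (adjusted p = 0.195). Over these 4 chains the median log2 fold changes were 0.36 and -0.52.

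Of 21 genes that hydroxylate, fold or export procollagen, edgeR called 0 in the Smad2/3 comparison (median -0.26; 5 at an unadjusted p under 0.05, and 2 by DESeq2), where P4hb, the beta subunit of prolyl 4-hydroxylase, was at 285 and 258 against 301 and 269 CPM. In the Tgfbr1/2 comparison 4 rose, 1 fell and 16 did not pass (median 0.46; 15 at an unadjusted p under 0.05, and 7 by DESeq2). Serpinh1, the collagen chaperone Hsp47, rose 2.05-fold, to 945 and 894 CPM (log2 fold change 1.04 ± 0.20, edgeR adjusted p = 0.023). Plod3, a lysyl hydroxylase, went from 93.2 and 97.5 to 178 and 197 CPM (1.06 ± 0.19, edgeR adjusted p = 0.0176), and the collagen galactosyltransferase gene Glt25d1 rose by 0.85 ± 0.19 (edgeR adjusted p = 0.0336). Glt25d2, its paralog, fell by 0.86 ± 0.19 (edgeR adjusted p = 0.0352). Each of these 4 calls was lost without at least 1 library (adjusted p up to 0.0957 for Plod3, 0.108 for Serpinh1, 0.165 for Glt25d1 and 0.187 for Glt25d2). The difference between the effects passed edgeR for 2 of the 21, both more negative in the Smad2/3 comparison. Over the 21 its median was -0.68, with 14 at an unadjusted p under 0.05 and 10 called by DESeq2. Fkbp10, a collagen chaperone, differed by -2.30 ± 0.38 (edgeR adjusted p = 0.0178, up to 0.0536 without a library), and Lepre1, a prolyl 3-hydroxylase, by -1.60 ± 0.31 (edgeR adjusted p = 0.0314, up to 0.123 without a library).

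Of 14 genes of propeptide removal and crosslinking, 2 fell in the Smad2/3 comparison and 12 did not pass (median -0.42). Loxl2, a lysyl oxidase that crosslinks collagen, went from 878 and 873 to 383 and 352 CPM (-1.31 ± 0.14, edgeR adjusted p = 0.00189), and no library left out ended the call. Adamts2, the procollagen N-proteinase, went from 297 and 235 to 168 and 123 CPM (-0.93 ± 0.19, edgeR adjusted p = 0.0458, up to 0.192 without a library). In the Tgfbr1/2 comparison 1 rose, Tgm2, a transglutaminase, from 114 and 74.6 to 198 and 177 CPM (1.08 ± 0.21, edgeR adjusted p = 0.0221, up to 0.0885 without a library), and the median was 0.29. The effects on Loxl2 and Tgm2 also differed between the comparisons (-1.76 ± 0.24, edgeR adjusted p = 0.00593, and -1.81 ± 0.30, edgeR adjusted p = 0.0168, the latter up to 0.0664 without a library).

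Of 16 proteins that bind collagen fibrils, 2 fell in each comparison, with no gene called in both. The difference between the effects passed edgeR for 1 of the 16, Ogn, with 5 at an unadjusted p under 0.05 and 3 called by DESeq2. By edgeR, the other genes are not shown to differ between the comparisons. In the Smad2/3 comparison (median -0.08) Sparc, a collagen-binding matricellular protein, went from 7220 and 5750 to 2183 and 1087 CPM (-2.05 ± 0.27, edgeR adjusted p = 0.00445, up to 0.292 without a library). Fn1, fibronectin, on which collagen is assembled, went from 2716 and 2851 to 1435 and 1291 CPM (-1.09 ± 0.14, edgeR adjusted p = 0.0037, and 0.165 in the fit shared by all 8 libraries). In the Tgfbr1/2 comparison (median -0.41) the small leucine-rich proteoglycans Ogn and Aspn fell, Ogn from 651 and 947 to 313 and 241 CPM (-1.47 ± 0.25, edgeR adjusted p = 0.0144) and Aspn from 444 and 780 to 250 and 223 CPM (-1.31 ± 0.29, edgeR adjusted p = 0.0429). Without a library, these reached 0.0771 and 0.162. In the Smad2/3 comparison, Ogn was at 924 and 824 CPM in control and 1185 and 1478 CPM in DKO libraries, and the difference between the effects passed (2.01 ± 0.33, edgeR adjusted p = 0.0168, up to 0.0676 without a library).

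Of 8 collagen receptors edgeR called 0 in either comparison (medians -0.25 and 0.01). At an unadjusted p under 0.05 there were 4 in the Smad2/3 and 1 in the Tgfbr1/2 comparison, and DESeq2 called 1 and 0. Ddr2, a receptor kinase for fibrillar collagen, was at 574 and 760 against 443 and 511 CPM in the Smad2/3 comparison (edgeR adjusted p = 0.16). Of the genes of collagen breakdown, 0 of 10 tested passed edgeR in the Smad2/3 comparison (median -0.51; 5 at an unadjusted p under 0.05, and 1 by DESeq2) and 1 of 9 in the Tgfbr1/2 comparison (median -0.18). That gene was Timp1, an inhibitor of matrix metalloproteinases, which rose from 104 and 123 to 938 and 829 CPM (3.03 ± 0.23, edgeR adjusted p = 0.000121). In the Smad2/3 comparison Timp1 was at 93.9 and 101 against 96.6 and 95.5 CPM, and the difference between the effects passed (-3.12 ± 0.25, edgeR adjusted p = 0.000208). It also passed for Mmp14, a membrane-bound collagenase (-1.30 ± 0.27, edgeR adjusted p = 0.0366, up to 0.13 without a library). Of 23 genes of TGF-beta input and collagen gene regulation, 0 passed edgeR in the Smad2/3 comparison (median -0.07; 8 at an unadjusted p under 0.05, and 2 by DESeq2) and 1 rose in the Tgfbr1/2 comparison (median -0.02), the transcription factor Srf, from 41.3 and 39.9 to 80.7 and 75 CPM (1.02 ± 0.18, edgeR adjusted p = 0.0146, up to 0.0661 without a library).

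**Figure D4:**
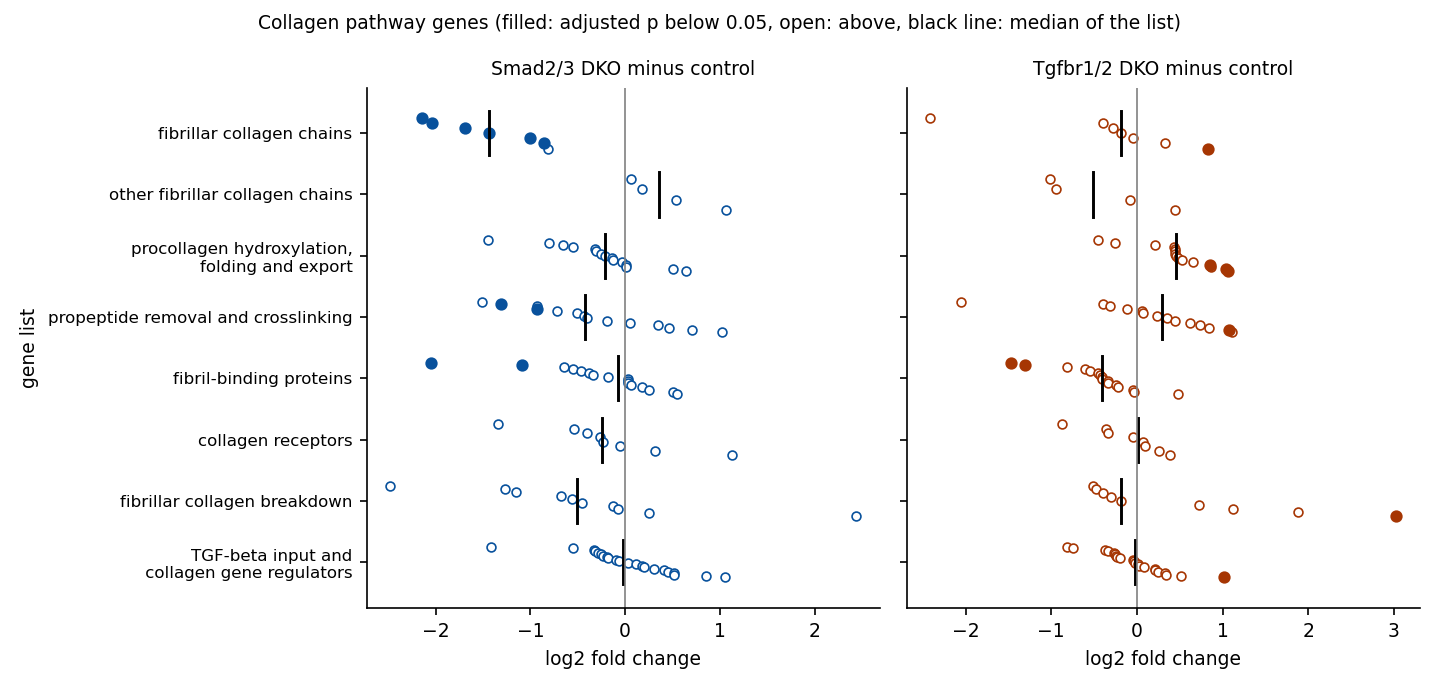
Log2 fold change of tested genes of the 7 chains and of 7 collagen pathway lists in both knockout comparisons, with a black line at the median of the genes drawn. Filled points have an adjusted p below 0.05. Taking all tested genes of each list, the median of the fibrillar chains is -1.44 in the Smad2/3 and -0.19 in the Tgfbr1/2 comparison. Those of the other lists lie between -0.52 and 0.46.

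In the authors' deposited table, which gives a log2 fold change without a test, the chains had values of the same sign as the fits above in both comparisons. For the Smad2/3 comparison the authors' deposited table gives -1.64 for Col1a1, -1.38 for Col1a2, -2.09 for Col3a1, -0.96 for Col5a1, -0.81 for Col5a2, -0.76 for Col5a3 and -1.97 for Col11a1. For the Tgfbr1/2 comparison the authors' deposited table gives -0.22, -0.43, -0.33, 0.26, -0.11, 0.74 and -2.29 for the chains in the same order.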

How the data were processed

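RNA from GFP-sorted fibroblasts was amplified with the Ovation RNA-Seq System v2 and made into Nextera XT libraries for the HiSeq2500, per the labels' protocols. The authors deposited expected counts (named raw) for 38087 Ensembl genes per library in 2 tables, and a log2 fold change per gene. That value is the difference between group means of their normalized log2 values, and genes are listed as up or down without a test, per the file headers. The genome build was mm10, per the submitters' processing notes. Aligner and counter were not given in the sources used here.

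Counts were rounded, entries sharing a symbol were summed, and CPM was the count over the library total. The 4 libraries of a comparison were fitted with edgeR 4.0.16 under R 4.3.3 (two-sided robust quasi-likelihood test after TMM and filterByExpr), with Benjamini-Hochberg adjustment over all tested genes. SE was derived from the F statistic. Alternatives were DESeq2 1.42.0, size factors of its type, no low-count filter, no robust estimation, unsummed entries, a shared fit, and leaving out each library, where a group left with 1 library borrows the spread of the others. Replicates of each group differed beyond sampling noise (chi-square per degree of freedom 40.6 to 88.1). Intervals from counting were not used, and floors of 3 counts cover counting error only. Named genes were the 7 chains, the targeted and driver genes, in each pathway list up to 4 genes past the threshold with the smallest p or else up to 2 with the highest mean, in each marker list the 3 with the highest mean, and the 5 genes most like Col1a1, Col1a2 and Col3a1. The members and lists were chosen with earlier results of these data known, and the sex-linked genes after seeing them.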

Additional observations from a re-analysis of the deposited data

Results flagged for a closer look

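The effects on 3 chains differed between the knockout comparisons by the interaction test over all 8 libraries. The Smad2/3 effect minus the Tgfbr1/2 effect was -1.88 for Col3a1, -1.35 for Col5a1 and -1.66 for Col5a3 on the log2 scale (edgeR adjusted p = 0.0314, 0.0325 and 0.0142). Col3a1 was 4.44-fold lower in Smad2/3 DKO than in control libraries. Col5a3 was lower in both Smad2/3 DKO libraries than in their controls, without passing (edgeR adjusted p = 0.223). It was higher in both Tgfbr1/2 DKO libraries than in their controls (edgeR adjusted p = 0.0332), a call lost when any single library was left out. Of all tested genes, 18.9% were lower without overlap in the Smad2/3 comparison and 21.8% higher in the Tgfbr1/2 comparison. The interaction calls of Col3a1 and Col5a1 were also lost without some single libraries. Driver, run and targeted genes change together between the comparisons and cannot be told apart.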

How the results depend on the processing

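The Smad2/3 count of 6 chains was 5 to 6 under the alternatives run, except for 4 in the shared fit, and the chains counted fell in each. Without the low-count filter, all genes past the threshold numbered 819 (Smad2/3), 1233 (Tgfbr1/2) and 1194 (difference), and with DESeq2 771, 1104 and 1138. For the difference, both settings called 5 chains, with Col1a1 and Col1a2 added. Without robust estimation 0 chains passed in the Tgfbr1/2 comparison, and the shared fit called 299 genes there. With single libraries left out, chains past the threshold numbered 0 in the Tgfbr1/2 comparison, 1 to 4 for the difference and 1 to 5 between controls, and all genes 105 to 297 (Smad2/3), 271 to 484 (Tgfbr1/2), 89 to 302 (difference) and 3177 to 6801 (controls); fewer samples were fitted, and no further cause was tested.

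Fitted log2 fold changes that changed sign on leaving out a library had these ranges. In the Smad2/3 comparison they were -0.07 to 0.10 for P4hb and -0.62 to 0.03 for Smad3. In the Tgfbr1/2 comparison they were -0.53 to 0.29 for Col1a1, -0.73 to 0.08 for Col1a2, -0.58 to 0.14 for Col3a1, -0.32 to 0.30 for Col5a2 and -0.19 to 0.41 for Ddr2. Between controls they were -0.96 to 0.98 for Col11a1, -0.48 to 0.23 for Col3a1 and -0.06 to 0.54 for Col5a2, and for the difference -0.92 to 1.01 for Col11a1. Col11a1 between controls passed in opposite directions without Tcf21-Cre control HK6 or HK7, the libraries in which it differed 3.6-fold. With the longest transcript as length, the log2 ratio of Col1a1 to Col1a2 became -1.0 in Postn-Cre control, -0.67 in Tcf21-Cre control and -0.46 in Tgfbr1/2 DKO libraries, and that of Col5a1 to Col5a2 -0.45 in Postn-Cre control libraries. No paired analysis was possible because the library numbers pair nothing between the groups compared. Depth does not limit the chains, of which the lowest was at 12.3 CPM, and the spread between 2 libraries per group does, as for Col11a1 in the Tgfbr1/2 comparison.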
